A study of Sus scrofa with 24 samples.

Results

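The respiratory chain and the ATP synthase of pig loin muscle were followed through 64 genes. They were the genes with at least 1 probe set whose only platform symbol began with NDUFA, NDUFB, NDUFC, NDUFS, NDUFV, SDH, UQCR, COX4, COX5, COX6, COX7, COX8 or ATP5. These prefixes took 82 of the 24123 probe sets of the array and 64 of the 6765 genes with a probe set of 1 symbol. Each gene was represented by the probe set with the highest mean signal over all pigs. Of the 64 genes, 59 encode subunits (33 of complex I, 4 of complex II, 2 of complex III, 7 of complex IV and 13 of the ATP synthase) and 5 encode assembly or coupling factors (NDUFAF1, NDUFAF2, NDUFAF3, SDHAF2 and ATP5S). NDUFA4 is counted here with complex I by its symbol, although the human protein is now assigned to complex IV.

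RNA came from loin muscle (longissimus dorsi) of 24 Landrace × Large White × Duroc pigs, with 1 array per pig. The pigs entered the trial at about 71 kg and 130 days of age, and every feed held 3% added fat. The fat was soybean oil, olive oil, coconut oil or beef tallow, with 6 pigs per fat, of which 3 were barrows (castrated males) and 3 were gilts (young females). There was no group without added fat, so each fat is set against another fat. The pigs were housed in pens, but the labels do not tie the sampled pigs to pens. Whether any sampled pigs shared a pen is not known. Each pig was treated as independent, and the errors leave pens out of account. Pigs are named by the running number of the sample title.

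In oxidative phosphorylation, complex I takes electrons from NADH and complex II takes them from succinate. Both pass them through ubiquinone to complex III, then through cytochrome c to complex IV, where oxygen is reduced. Complexes I, III and IV pump protons across the inner mitochondrial membrane, and the ATP synthase uses the returning protons to make ATP. In skeletal muscle the content of these complexes is known to be higher in slow oxidative than in fast glycolytic fibres.

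All 64 genes exceeded the signal filter of the test. The arrays had median signals between 139.1 and 174.4. A pig's mean correlation with the other arrays lay between 0.913 and 0.933, and pigs 11, 16 and 12 were the lowest. The muscle markers matched on the array were 3 of 5 (CKM, TNNT3 and DES), with mean signals of 47640, 39000 and 25590. TNNT3 was also in the list of fast fibre markers, so the counts and sums of these lists are not separate. In whole muscle, fewer cells of a type and less RNA per cell cannot be told apart.

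No respiratory chain gene passed the test (limma, Benjamini-Hochberg adjusted p under 0.05) in any comparison of fats or sexes. For soybean oil minus olive oil, 0 of 64 genes passed, against 0% of all probe sets, and 0 had an unadjusted p under 0.05, against 3.2%. For soybean oil minus coconut oil, 0 passed against 0%, and 4 had an unadjusted p under 0.05 against 13.1%. For soybean oil minus beef tallow, 0 passed against 0%, and 0 had an unadjusted p under 0.05 against 3.46%. The same held for olive oil minus coconut oil, with 0 passing against 0% and 1 unadjusted p under 0.05 against 8.9%. Olive oil minus beef tallow had 0 passing against 0% and no unadjusted p under 0.05 (0 genes), against 6.47%. For coconut oil minus beef tallow, 0 passed against 1.17% of all probe sets, and 3 had an unadjusted p under 0.05 against 19.9%. For barrow minus gilt, 0 passed against 4.83%, and 2 had an unadjusted p under 0.05 against 21.1%. The F test over the 4 fats gave 0 passing against 0%, and 0 with an unadjusted p under 0.05 against 11.7%.

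The precision of these differences can be read from their intervals. The median half-width of a gene's 95% interval was 0.318 on the log2 scale between 2 fats and 0.225 between the sexes. The whole interval lay within a 1.5-fold difference in either direction for 48 to 61 of the 64 genes, depending on the pair of fats, and for 62 genes between the sexes. The widest intervals belonged to ATP5I and COX7A1, whose residual SDs of 0.629 and 0.568 were the largest of the 64 genes. The smallest residual SD was 0.109, for NDUFS5, and the median was 0.255, against 0.319 over all probe sets tested.

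**Figure D1:**
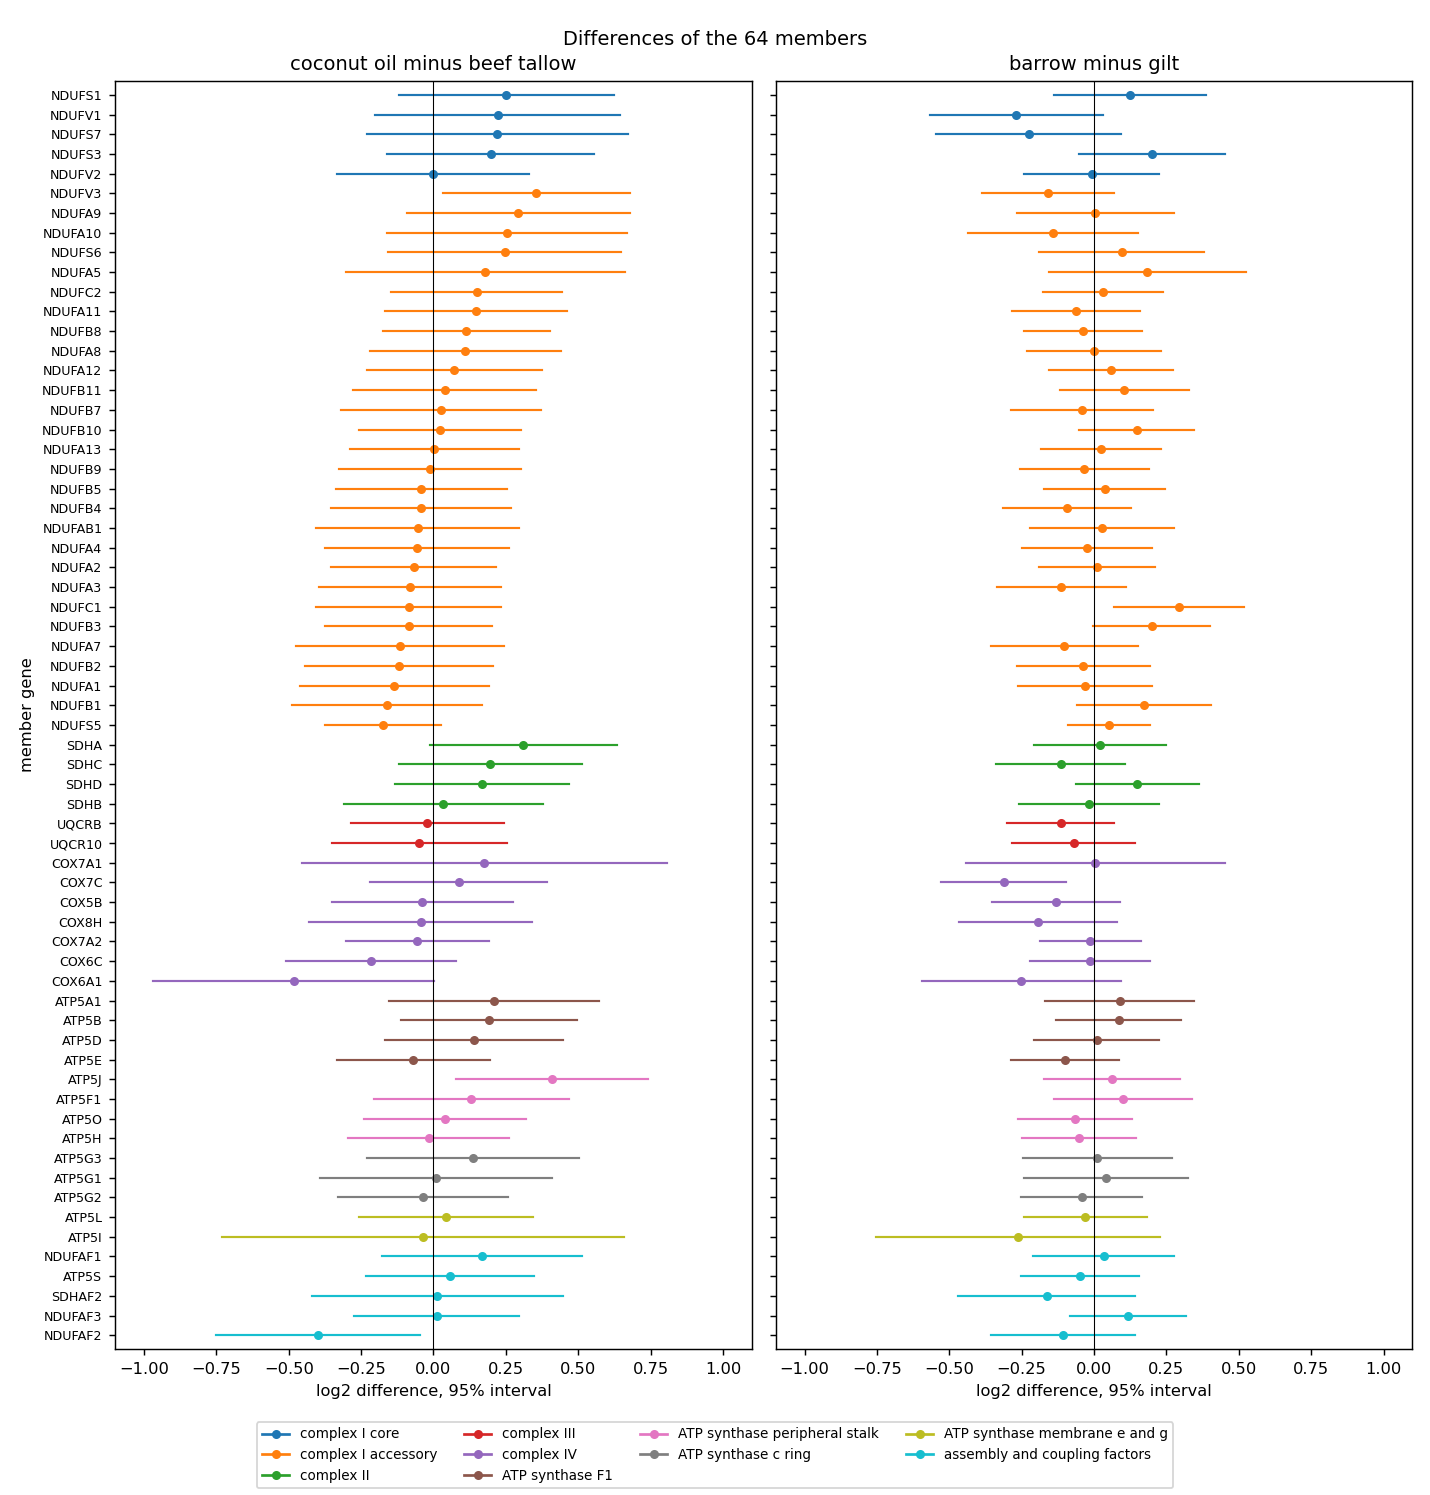
Log2 difference of each of the 64 genes (points) with its 95% interval (lines) for coconut oil minus beef tallow on the left and barrow minus gilt on the right, ordered by complex and coloured by role. Values lie between -0.48 (COX6A1) and 0.41 (ATP5J) between the fats and between -0.31 (COX7C) and 0.29 (NDUFC1) between the sexes.

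Complex I was represented by 5 of its catalytic core subunits and 28 accessory subunits. In coconut oil minus beef tallow the core subunits had a median log2 difference of 0.22, with 4 of 5 positive, while the accessory subunits had a median of -0.0041, with 14 of 28 positive. NDUFS1, the large iron-sulphur subunit of the NADH-oxidising arm, had levels with a lowest, median and highest value of 11.95, 12.17 and 12.32 with coconut oil, against 11.61, 11.87 and 12.15 with beef tallow. The coconut oil pigs were thus mostly the higher, but the ranges overlapped, and the difference of 0.25 ± 0.178 (SE, n = 6 each) had an adjusted p of 0.451. NDUFV1, which binds NADH and its flavin, differed by 0.22 ± 0.202 (adjusted p = 0.577), and by 0.13 without pig 1. NDUFS3 and NDUFS7, core subunits near the quinone site, differed by 0.20 ± 0.171 and 0.22 ± 0.217, with adjusted p of 0.551 and 0.605. NDUFV2, the partner of NDUFV1, showed a difference of -0.0022 ± 0.159 (adjusted p = 0.996). Further tested probe sets of NDUFV2 gave -0.20 and 0.23, opposite in sign to each other.

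NDUFV3, a small accessory protein at the NADH-binding tip, had the largest coconut oil minus beef tallow difference within complex I. Its lowest, median and highest levels were 7.74, 8.26 and 8.70 with coconut oil, against 7.77, 7.87 and 8.26 with beef tallow. The groups overlapped, and 5 of 6 coconut oil pigs lay above the beef tallow mean. The difference was 0.36 ± 0.156, with an adjusted p of 0.208. In soybean oil minus coconut oil, which shares the coconut oil pigs, NDUFV3 differed by -0.36 ± 0.156 (adjusted p = 0.336).

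The membrane-arm accessory subunits NDUFC1 and NDUFC2 differed in other pairs. NDUFC2 had levels of 11.45, 11.88 and 12.15 (lowest, median and highest) with olive oil, against 11.84, 12.22 and 12.56 with coconut oil. All 6 olive oil pigs lay below the coconut oil mean, the groups overlapped, and the difference of -0.33 ± 0.141 had an adjusted p of 0.552. NDUFC1 differed by -0.28 ± 0.153 for olive oil minus beef tallow (adjusted p = 0.803) and by -0.20 ± 0.153 for soybean oil minus beef tallow (adjusted p = 1). These values were -0.15 without pig 12 and -0.12 without pig 11.

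Further accessory subunits had the smallest p of a pair without passing. NDUFS5 had levels of 12.28, 12.36 and 12.51 with olive oil, against 12.34, 12.51 and 12.78 with beef tallow, a difference of -0.18 ± 0.096 (adjusted p = 0.803) that was -0.12 without pig 16. Its spread was the narrowest of the family, and the groups overlapped. NDUFA1 and NDUFB2 differed by -0.27 ± 0.157 and -0.25 ± 0.155 in olive oil minus beef tallow (adjusted p = 0.824 and 0.844), and leaving out pig 12 took these to -0.15 and -0.12. NDUFB9 differed by -0.24 ± 0.151 in soybean oil minus beef tallow (adjusted p = 1), and by -0.15 without pig 9. NDUFA2 differed by 0.23 ± 0.137 in soybean oil minus olive oil (adjusted p = 1), and by 0.14 without pig 11. NDUFA4 and NDUFAB1, the mitochondrial acyl carrier protein, differed by -0.06 ± 0.152 and -0.05 ± 0.169 in coconut oil minus beef tallow (adjusted p = 0.867 and 0.887), and both were 0.01 without pig 16. Without pig 21 they were -0.16 and -0.15.

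Complex II had all 4 of its subunits on the array, and all 4 were positive in coconut oil minus beef tallow, with a median log2 difference of 0.18. SDHA, the flavoprotein that oxidises succinate, had levels of 12.57, 12.71 and 13.04 (lowest, median and highest) with soybean oil. With olive oil they were 12.20, 12.82 and 13.16, with coconut oil 12.95, 13.08 and 13.23, and with beef tallow 12.37, 12.78 and 13.11. Coconut oil had the highest median and the narrowest range, and it overlapped every other fat. The SDHA difference was 0.31 ± 0.155 for coconut oil minus beef tallow (adjusted p = 0.271), -0.33 ± 0.155 for soybean oil minus coconut oil (adjusted p = 0.371) and -0.28 ± 0.155 for olive oil minus coconut oil (adjusted p = 0.572). The last of these was -0.16 without pig 12.

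The other complex II subunits also overlapped between the fats. SDHB, the iron-sulphur subunit, had medians of 13.80 with soybean oil, 13.87 with olive oil, 13.95 with coconut oil and 13.97 with beef tallow, and differed by 0.03 ± 0.165 in coconut oil minus beef tallow (adjusted p = 0.932), which was -0.10 without pig 21 and 0.13 without pig 16. SDHC and SDHD, the membrane anchors, differed by 0.20 ± 0.152 and 0.17 ± 0.144 in the same pair (adjusted p = 0.495 and 0.548), with SDHC at 0.10 without pig 16 and SDHD at 0.09 without pig 21. A second tested probe set of SDHA gave 0.46 in coconut oil minus beef tallow, and a second one of SDHB gave -0.03, opposite in sign to its first.

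Complex III was represented by UQCRB, which lies at the ubiquinone-binding part, and UQCR10, a small subunit. UQCRB had medians of 14.01 with soybean oil, 14.15 with olive oil, 14.12 with coconut oil and 14.23 with beef tallow. Its fat means differed by at most 0.0783, against a residual SD of 0.193, so no order of the fats could be read from it. The probe sets of UQCRB and NDUFAF2 have names that mark possible shared sequence with other genes. UQCRC1, UQCRC2 and UQCRFS1 were not analysed here.

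In complex IV, 2 of 7 subunits were positive in coconut oil minus beef tallow, with a median of -0.04. COX6A1, the isoform of subunit 6A found in most tissues, had levels of 11.19, 11.43 and 12.29 (lowest, median and highest) with soybean oil. They were 10.80, 11.20 and 12.32 with olive oil, 10.44, 11.00 and 11.47 with coconut oil, and 11.21, 11.54 and 11.78 with beef tallow. Coconut oil was the lowest by median and overlapped every other fat. COX6A1 differed by -0.48 ± 0.233 in coconut oil minus beef tallow (adjusted p = 0.256) and by 0.51 ± 0.233 in soybean oil minus coconut oil (adjusted p = 0.363), which became 0.34 without pig 11. The muscle isoform COX6A2 was not analysed here.

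COX7A1, the heart and muscle isoform of subunit 7A, had levels of 11.86, 14.08 and 14.28 with soybean oil, against 13.25, 14.20 and 14.33 with olive oil. The lowest value belonged to pig 11, a soybean oil gilt, and the medians lay close together. The difference of -0.33 ± 0.302 (adjusted p = 1) became 0.04 without pig 11. COX7A2, the isoform found in most tissues, had fat means within 0.0717 of each other. COX5B, a nuclear-encoded subunit on the matrix side, differed by -0.04 ± 0.150 in coconut oil minus beef tallow (adjusted p = 0.912), and by 0.05 without pig 16 and -0.14 without pig 21.

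The ATP synthase was represented by 4 subunits of its catalytic F1 head, 4 of the peripheral stalk, the 3 genes of the proton-carrying c subunit and the membrane subunits e and g. In soybean oil minus coconut oil none of these was positive (0 of 13), with a median of -0.18, against -0.09 over all 64 genes and 0.03 over all probe sets. In coconut oil minus beef tallow 9 of 13 were positive, with a median of 0.04, and the F1 head alone had a median of 0.17. ATP5J, known as coupling factor 6 of the peripheral stalk, had the smallest unadjusted p of the family between fats. Its lowest, median and highest levels were 11.93, 12.23 and 12.48 with soybean oil and 11.49, 12.46 and 12.64 with olive oil. They were 12.21, 12.66 and 12.82 with coconut oil, against 12.00, 12.22 and 12.50 with beef tallow.

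Coconut oil had the highest ATP5J median, and the ranges overlapped. ATP5J differed by 0.41 ± 0.159 in coconut oil minus beef tallow (unadjusted p = 0.0182, adjusted p = 0.16) and by -0.40 ± 0.159 in soybean oil minus coconut oil (adjusted p = 0.315). With weights that count less variable arrays more, the coconut oil minus beef tallow difference of 0.45 passed, with an adjusted p of 0.0365. In olive oil minus coconut oil ATP5J differed by -0.31 ± 0.159 (adjusted p = 0.565), and by -0.14 without pig 12. Its F test over the 4 fats had an unadjusted p of 0.0583 and an adjusted p of 0.441.

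The catalytic beta subunit ATP5B was the only member whose values with soybean oil and coconut oil did not overlap (1 of 64 genes), against 1.07% of all probe sets. Its lowest, median and highest levels were 14.17, 14.31 and 14.37 with soybean oil, against 14.43, 14.59 and 14.73 with coconut oil. Every soybean oil pig was thus below every coconut oil pig, and the difference of -0.28 ± 0.146 had an adjusted p of 0.424. ATP5A1, the alpha subunit, differed by -0.27 ± 0.174 in the same pair (adjusted p = 0.514). ATP5G1, ATP5G2 and ATP5G3, which encode the same mature c subunit, differed by -0.14, -0.0053 and -0.18. Leaving out 1 pig took these to -0.07 (ATP5G1 without pig 19), 0.04 (ATP5G2 without pig 9) and -0.10 (ATP5G3 without pig 9). ATP5I, subunit e, had the lowest value of soybean oil minus beef tallow, at -0.58 ± 0.333 (adjusted p = 1), which was -0.35 without pig 11 and -0.87 without pig 3. In soybean oil minus olive oil ATP5I differed by -0.51 ± 0.333 (adjusted p = 1), which was -0.29 without pig 11 and -0.80 without pig 3.

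**Figure D2:**
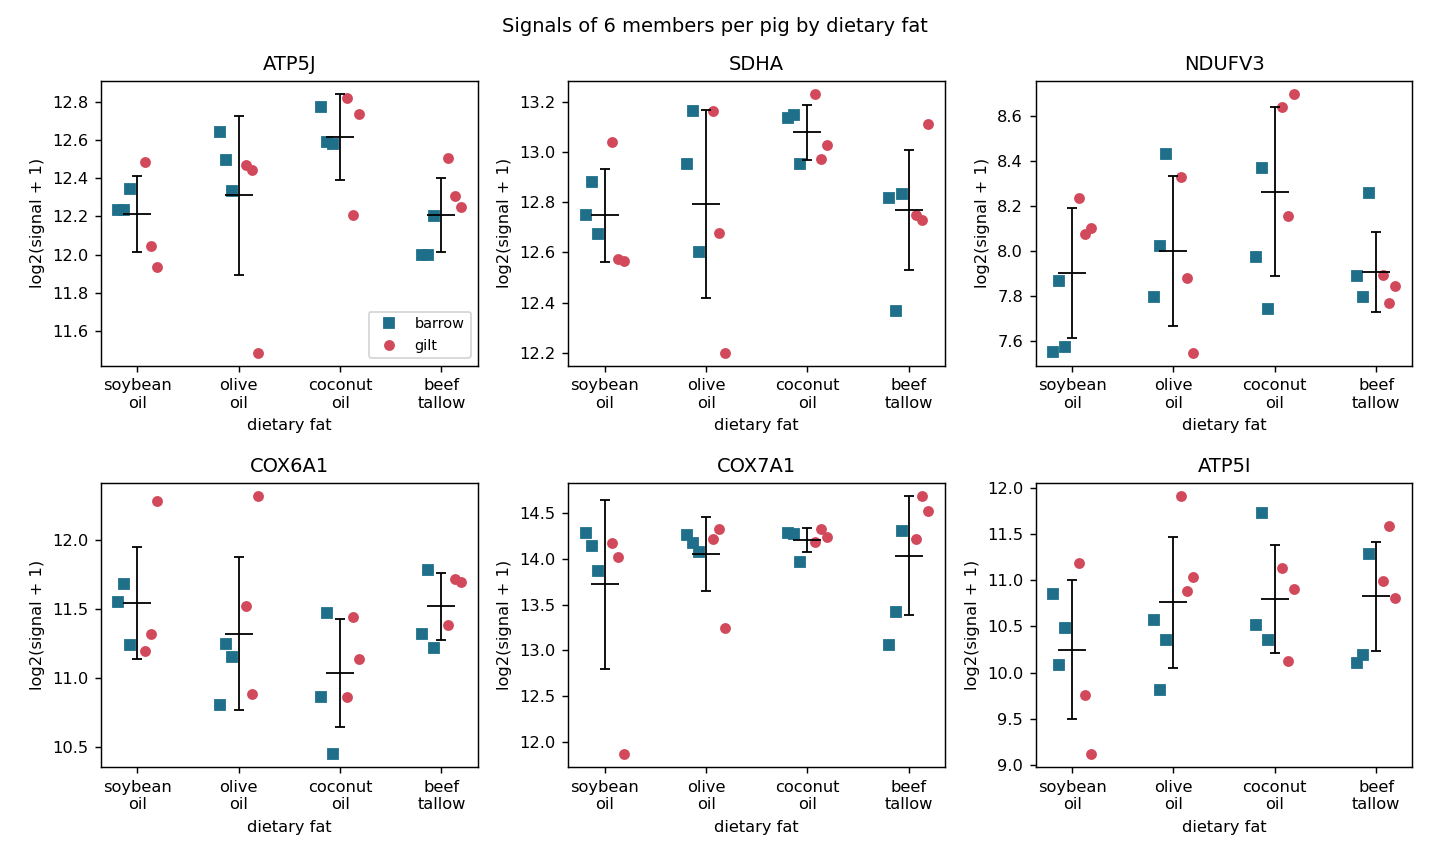
Signals of ATP5J, SDHA, NDUFV3, COX6A1, COX7A1 and ATP5I on the log2(signal + 1) scale for each pig, by dietary fat, with barrows as squares, gilts as circles and black bars for the mean and SD of 6 pigs. Coconut oil pigs have the highest SDHA and ATP5J medians and the lowest COX6A1 median, with overlap in each case, and 1 soybean oil gilt sits at 11.86 for COX7A1.

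NDUFAF2, an assembly factor that binds complex I late in its assembly, was the only member whose coconut oil and beef tallow values did not overlap (1 of 64 genes), against 1.81% of all probe sets. Its lowest, median and highest levels were 7.26, 7.62 and 7.78 with coconut oil, against 7.84, 7.94 and 8.28 with beef tallow. The coconut oil pigs were all the lower, and the difference of -0.40 ± 0.169 had an adjusted p of 0.194. In soybean oil minus beef tallow NDUFAF2 differed by -0.26 ± 0.169 (adjusted p = 1). No member had separate ranges in the other pairs of fats (0 of 64 each), against 0.111% for soybean oil minus olive oil, 0.0625% for soybean oil minus beef tallow, 0.236% for olive oil minus coconut oil and 0.16% for olive oil minus beef tallow.

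Over the whole family, the median furthest from 0 among the 6 pairs of fats was that of olive oil minus coconut oil, a log2 difference of -0.13 and 5 of 64 genes positive, against a median of -0.0046 over all probe sets. Without pig 12, an olive oil gilt, that median was -0.02 with 28 of 64 positive. Soybean oil minus coconut oil had a median of -0.09 with 14 of 64 positive, against 0.03 over all probe sets, and 8 to 22 were positive when 1 pig was left out (lowest without pig 11, highest without pig 9). After quantile normalization the median of this pair was -0.041, against -0.015 over all probe sets, so the gap depended on the normalization. Olive oil minus beef tallow had a median of -0.10 with 11 positive, and 0.02 with 36 positive without pig 12. Soybean oil minus beef tallow had a median of -0.05 with 17 positive, which became 0.0064 with 35 positive without pig 9, a soybean oil gilt, and -0.11 with 7 positive without pig 21, a beef tallow barrow. Soybean oil minus olive oil had a median of 0.04 with 41 positive, which became -0.06 with 14 positive without pig 12. Coconut oil minus beef tallow had a median of 0.03 with 37 positive, against -0.04 over all probe sets. Centring on array medians gave 0.15 and shifted the median of all probe sets by 0.126, while quantile normalization gave -0.02. These pairs share pigs and are not separate evidence.

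Markers of other cell types moved between some of the same groups. In coconut oil minus beef tallow, 5 of 7 fibroblast markers fell (COL1A2, DCN, POSTN, FBN1 and THY1, by 0.69 to 1.60 on the log2 scale, adjusted p from 0.0313 to 0.0474), against 1.17% of all probe sets called in either direction. The summed signal of the 7 was 20980 to 28490 with coconut oil, against 26190 to 68330 with beef tallow. These calls were not stable to single pigs: when each pig was left out in turn, they passed in 6 (COL1A2) to 16 (THY1) of 24 runs. Of the 6 adipocyte markers matched, FABP4, a fatty acid carrier of fat cells, fell by 1.09 on the log2 scale (adjusted p = 0.0479, passing in 5 of the 24 runs that left out 1 pig), and the summed signal was 6385 to 11550 with coconut oil, against 8167 to 38580 with beef tallow. The slow fibre markers had 6 of 8 genes positive, with a median difference of 0.08, and none passed. The fast fibre markers had 4 of 6 positive (median 0.04) and the muscle markers 2 of 3 (median 0.07). The endothelial markers had 0 of 6 positive (median -0.22), and none passed. Leukocyte markers (5 of 7 matched) summed to 803.4 to 1771 with coconut oil, against 1090 to 2019 with beef tallow. Of these, PTPRC and ITGAM were under the signal filter. Summed linear signals weigh the brightest gene of a list most. The brightest were CD163 (leukocyte), FABP4 (adipocyte) and DCN (fibroblast), with mean signals of 1161, 11310 and 17640. In the other 5 pairs of fats no marker passed (0).

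Soybean oil minus coconut oil had 6 of 6 adipocyte markers positive (median 1.07, 4 with an unadjusted p under 0.05, against 13.1% of all probe sets). The summed adipocyte signal was 12920 to 29530 with soybean oil, against 6385 to 11550 with coconut oil, without overlap. The fibroblast markers had 7 of 7 positive (median 0.40, 4 with an unadjusted p under 0.05) and summed to 25960 to 38150 with soybean oil, against 20980 to 28490 with coconut oil. The endothelial markers had 5 of 6 positive (median 0.25). The muscle markers had 0 of 3 positive (median -0.09). Slow fibre markers had 1 of 8 positive (median -0.10) and fast fibre markers 1 of 6 (median -0.06). The median of the 64 respiratory chain genes in this pair was -0.09.

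Olive oil minus coconut oil had 6 of 6 adipocyte markers positive (median 0.63, 3 with an unadjusted p under 0.05, against 8.9% of all probe sets), 7 of 7 fibroblast markers (median 0.49, 3 with an unadjusted p under 0.05) and 5 of 6 endothelial markers (median 0.33). Adipocyte sums were 6871 to 43470 with olive oil, against 6385 to 11550 with coconut oil, and fibroblast sums were 24920 to 44800 with olive oil, against 20980 to 28490 with coconut oil. The muscle markers in olive oil minus coconut oil had 0 of 3 positive (median -0.11). Slow fibre markers had 1 of 8 positive (median -0.14) and fast fibre markers 0 of 6 (median -0.09). The median of the 64 respiratory chain genes in this pair was -0.13. In olive oil minus beef tallow 0 of 6 adipocyte markers and 1 of 7 fibroblast markers were positive, with medians of -0.57 and -0.34. Other non-muscle markers went the other way there. Of the endothelial markers 4 of 6 were positive (median 0.12), and of the leukocyte markers 3 of 3 tested (median 0.36). Slow and fast fibre markers had 2 of 8 and 1 of 6 positive there, with medians of -0.07 and -0.03. The part of these markers in the respiratory chain values was not tested.

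Between the sexes, 30 of the 64 genes were positive in barrow minus gilt, with a median of -0.01, against -0.02 over all probe sets. Without pig 12, an olive oil gilt, 15 of 64 were positive, with a median of -0.08. COX7C, a small subunit of complex IV, had the smallest unadjusted p of the 64 genes over the 7 comparisons. Its lowest, median and highest levels were 13.78, 14.07 and 14.31 in barrows, against 13.77, 14.44 and 14.86 in gilts. All 12 barrows lay below the gilt mean although the ranges overlapped, and the difference was -0.31 ± 0.104 (SE, n = 12 each, unadjusted p = 0.00693, adjusted p = 0.0861). COX7C passed after quantile normalization (-0.32, adjusted p = 0.0402), without pig 10 (-0.36, adjusted p = 0.0492) and without pig 12 (-0.36, adjusted p = 0.043).

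The rest of complex IV was mostly on the same side, with 1 of 7 subunits positive and a median of -0.13 (0 of 7 and -0.16 without pig 12). COX8H, the platform's name for a subunit 8 gene, differed by -0.20 ± 0.131 (adjusted p = 0.419) and COX6A1 by -0.25 ± 0.165 (adjusted p = 0.406), which was -0.16 without pig 12. COX7A1 differed by 0.0048 ± 0.214 (adjusted p = 0.994) and was -0.18 without pig 11.

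Complex I held genes on both sides. NDUFC1 had levels of 13.00, 13.24 and 13.60 in barrows, against 12.26, 12.99 and 13.44 in gilts, and all 12 barrows lay above the gilt mean. The ranges overlapped, and the difference was 0.29 ± 0.108 (adjusted p = 0.121). NDUFB3, another membrane-arm subunit, differed by 0.20 ± 0.0975 (adjusted p = 0.247). NDUFV1 had levels of 10.66, 11.20 and 11.59 in barrows, against 10.73, 11.40 and 11.88 in gilts, and differed by -0.27 ± 0.143 (adjusted p = 0.293). For the other complexes, the medians were 0.0011 for complex II, -0.09 for complex III and 0.0097 for the ATP synthase. Without pig 12 they were -0.06 for complex II, -0.13 for complex III and -0.06 for the ATP synthase, with 3 of 13 positive. No member had separate ranges (0 of 64), against 0.146% of all probe sets.

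**Figure D3:**
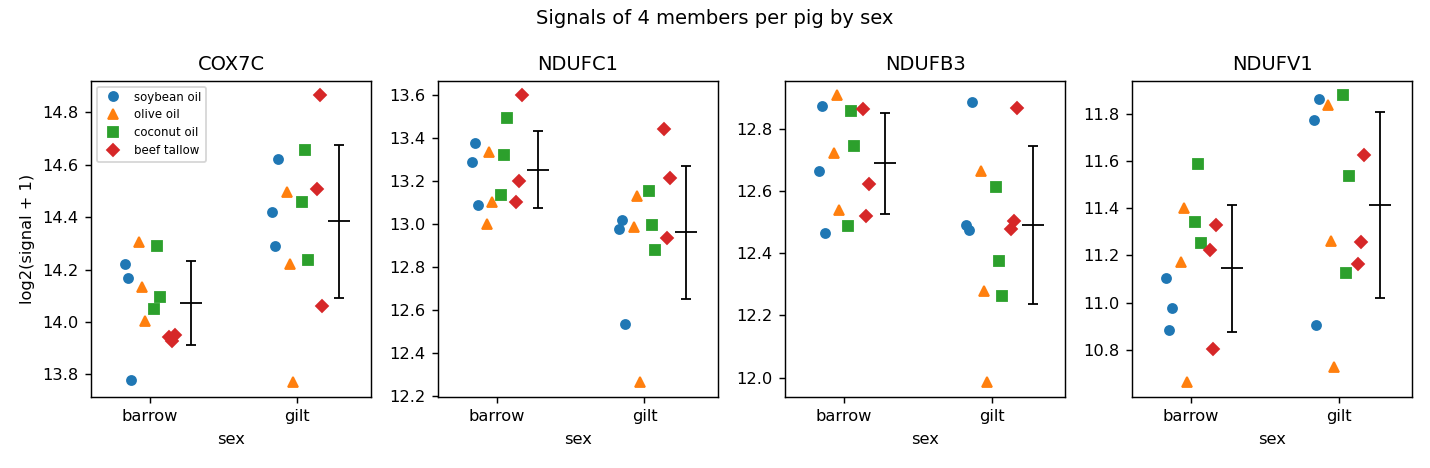
Signals of COX7C, NDUFC1, NDUFB3 and NDUFV1 on the log2(signal + 1) scale for each pig, barrows left and gilts right, with symbols for the dietary fat and black bars for the mean and SD of 12 pigs. The COX7C mean is 0.31 lower and the NDUFC1 mean 0.29 higher in barrows than in gilts, and the ranges overlap in all 4 panels.

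Beside the sex values, 1 of 6 adipocyte markers fell in barrows, against 4.83% of all probe sets called in either direction. It was LIPE, the hormone-sensitive lipase (-1.26, adjusted p = 0.0453, passing in 4 of the 24 runs that left out 1 pig). Of the 6, 1 was positive, with a median of -0.66 and 3 with an unadjusted p under 0.05, against 21.1% of all probe sets. The summed adipocyte signal was 6385 to 28990 in barrows, against 8167 to 43470 in gilts. None of the slow fibre markers was positive (0 of 8), with a median of -0.15, and none passed. The fast fibre markers had 4 of 6 positive, with a median of 0.15, and none passed. Unadjusted p was under 0.05 for 1 slow and 2 fast fibre markers, against 21.1% of all probe sets. Endothelial markers had 1 of 6 positive (median -0.11), and 2 had an unadjusted p under 0.05. Fibroblast markers had 5 of 7 positive (median 0.07) and leukocyte markers 3 of 3 tested (median 0.20). None of these passed. The part of these markers in the differences was not tested.

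Whether the fats acted alike in barrows and gilts was asked with the F test of the interaction. It gave 0 of 64 genes, against 0% of all probe sets, and 0 with an unadjusted p under 0.05, against 6.12%. The smallest unadjusted p belonged to NDUFV3 (0.0738, adjusted p = 0.781), followed by COX7A1 (0.0848), UQCRB (0.118) and ATP5I (0.135). The median over the 64 genes of barrow minus gilt was 0.03 with soybean oil, 0.19 with olive oil, -0.05 with coconut oil and -0.19 with beef tallow. With olive oil 56 of 64 genes were positive and with beef tallow 9 of 64. Without pig 12, 1 of the 3 olive oil gilts, the olive oil median was -0.03 with 21 of 64 positive. Without pig 21, 1 of the 3 beef tallow barrows, the beef tallow median was -0.07 with 25 of 64 positive.

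Most of the subunits were low or high in the same pigs. A score per pig, the mean over subunits of the log2 value minus that probe set's mean over all pigs, was -0.60 over the 59 subunits in pig 12 and -0.35 in pig 21. Next came pig 9, a soybean oil gilt (-0.22), and pig 19, a soybean oil barrow (-0.18). The highest scores were 0.23 in pig 10 and 0.19 in pig 8, both beef tallow gilts, and 0.22 in pig 20, a coconut oil barrow. Low pigs thus came from 3 of the fats, and beef tallow held pigs at both ends.

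By group, the scores over all subunits were -0.04 ± 0.131 with soybean oil, -0.06 ± 0.283 with olive oil, 0.07 ± 0.107 with coconut oil and 0.03 ± 0.208 with beef tallow (mean ± SD, n = 6 each). In barrows the score was -0.0071 ± 0.158 and in gilts 0.0071 ± 0.224 (n = 12 each). The SD between pigs within the groups of fat and sex was 0.199, larger than the distance between any of these means. No p is given for the scores, since their members were chosen with results of these data known.

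**Figure D4:**
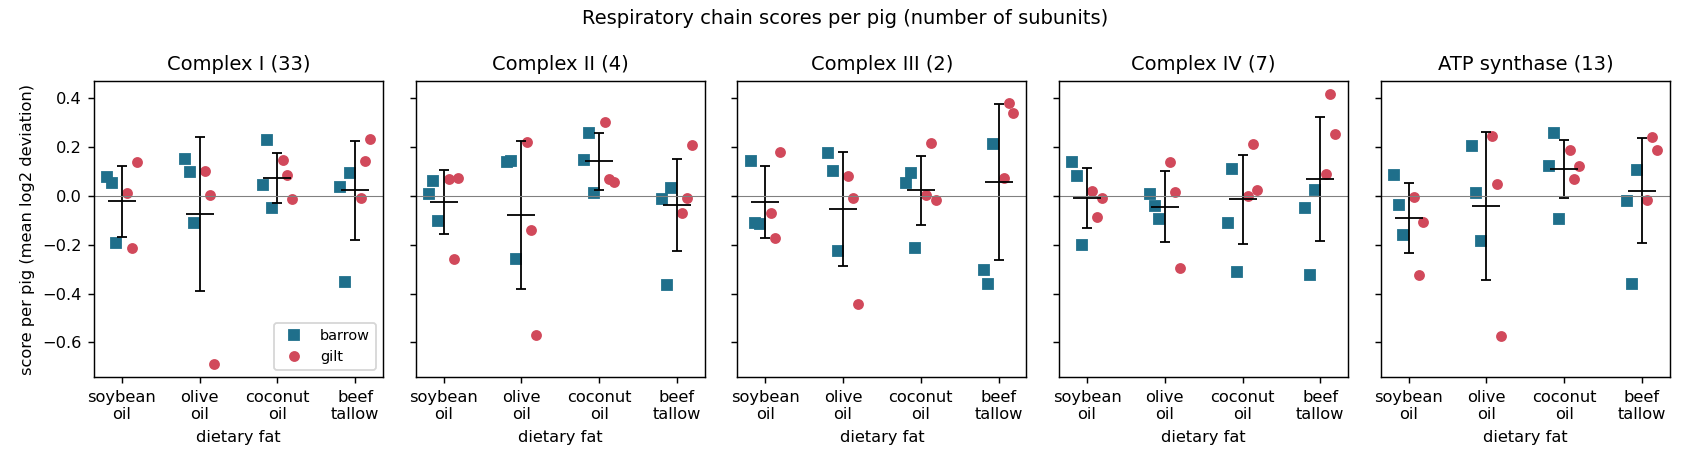
Score of each complex per pig (mean log2 deviation over its subunits, with their number in the panel title), by dietary fat, with barrows as squares, gilts as circles and black bars for the mean and SD of 6 pigs. The lowest olive oil point is pig 12 (-0.69 in complex I) and the lowest beef tallow point is pig 21 in every panel (-0.32 to -0.37).

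Pig 12 was low in every complex, with scores of -0.69 in complex I, -0.57 in complex II, -0.44 in complex III, -0.29 in complex IV and -0.57 in the ATP synthase. It held the lowest of the 24 values for 48 of the 64 genes (75%), against 10.9% of all probe sets. It also held the highest value for 1 of the 64 genes, against 14.2% of all probe sets. Both of these shares of all probe sets were the largest of any array. Pig 21 was low by a similar amount in all 5 complexes, with -0.35 in complex I, -0.37 in complex II, -0.36 in complex III, -0.32 in complex IV and -0.36 in the ATP synthase. Pigs 9, 19 and 21 were each below the gene's mean over all pigs for 59 of the 64 genes and pig 12 for 61, while pigs 20 and 10 were below it for 6 and 7. Of the variance of a subunit within the 8 groups of fat and sex, 47.5% was held by the mean per pig over the 59 subunits, and 34.6% without pig 12. COX6A1 ran the other way, with its highest value of the 24 in pig 12 (12.32). The only other genes above their mean there were ATP5I and COX7A2, and COX7A2 (11.77) lay practically at its mean. NDUFAF2, an assembly factor outside the score, was at 7.72 in pig 12. Pig 12 was singled out after its values were seen.

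**Figure D5:**
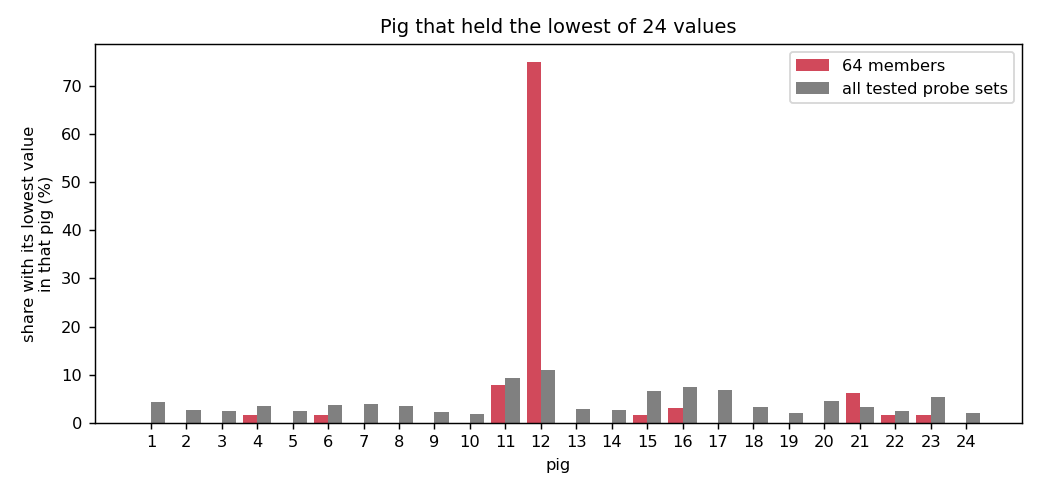
Share (%) of the 64 respiratory chain genes (red) and of all tested probe sets (grey) whose lowest value over 24 pigs was in the pig on the horizontal axis. Pig 12 held 75% of the 64 genes, against 10.9% of all probe sets.

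Other lists stood apart in pig 12 too. It had the lowest summed signal of the 24 pigs for the muscle markers (77260), the slow fibre markers (169900) and the fast fibre markers (137600). The muscle and fast fibre sums share TNNT3. The highest sums of the 24 were also in pig 12 for the adipocyte markers (43470), the endothelial markers (11290) and the leukocyte markers (3017). Its fibroblast sum of 44800 was the 22nd from the lowest. As above, such sums weigh the brightest gene of each list most. The 3′ to 5′ log2 ratio of its GAPDH probe sets was 0.19, within the range of 0.028 to 0.318 over all arrays, and its mean correlation with the other arrays was 0.918. The 3′ to 5′ log2 ratio of the actin probe sets was 1.61 in pig 12, 1.66 in pig 9, 1.58 in pig 19 and 1.06 in pig 21, with a lowest, median and highest value of 0.882, 1.26 and 1.84 over all arrays. The ratios of pigs 12, 9 and 19 were thus near the upper end and that of pig 21 was not. The highest ratio, 1.84, was in pig 16, whose score over all subunits was -0.0016. Pigs 8 and 20, with ratios of 1.51 and 1.48, had scores of 0.19 and 0.22. Pig 21 had an adipocyte sum of 28990, a fibroblast sum of 47090 and a slow fibre sum of 180500, but its endothelial sum of 5182 was the lowest of all pigs and its fast fibre sum was 189100. Pig 9 had an adipocyte sum of 29530 and a fibroblast sum of 25960, the lowest with soybean oil. The part of these lists and ratios in the low respiratory chain scores was not tested.

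Genes that serve the chain without being subunits were followed as 2 further lists. Of 50 assembly factors and electron carriers, 20 matched the array, 19 were tested and 0 passed in any comparison. In coconut oil minus beef tallow 16 of 19 were positive with a median of 0.19, and 2 had an unadjusted p under 0.05, against 19.9% of all probe sets. CYCS, which is cytochrome c, differed by 0.27 ± 0.195 (adjusted p = 0.456). In soybean oil minus coconut oil 4 of 19 were positive with a median of -0.20, and in olive oil minus coconut oil 2 of 19 with a median of -0.19.

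Of 33 genes of mitochondrial content and its regulation, 19 were tested. In coconut oil minus beef tallow 18 of 19 were positive with a median of 0.19, 0 passed and 3 had an unadjusted p under 0.05, a share below the 19.9% of all probe sets. PPARGC1A, a coactivator of mitochondrial gene programmes, differed by 1.55 ± 0.442 (adjusted p = 0.0722), CKMT2, the mitochondrial creatine kinase of muscle, by 0.40 ± 0.198 (adjusted p = 0.266), and CS, citrate synthase, by 0.26 ± 0.149 (adjusted p = 0.343). TFAM, which packages mitochondrial DNA, differed by 0.04 ± 0.113 (adjusted p = 0.882). In barrow minus gilt 1 of 19 passed, a share near the 4.83% of all probe sets. SUCLA2, a subunit of the succinyl-CoA ligase of the tricarboxylic acid cycle, rose in barrows by 0.31 ± 0.0871 (adjusted p = 0.043, passing in 7 of the 24 runs that left out 1 pig). Both lists had their lowest summed signal of the 24 pigs in pig 12 (28600 and 117000).

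Further probe sets exist for 15 of the 64 genes. Of these 18 probe sets, 12 were bright enough to be tested, for 9 genes. Over the 7 comparisons their difference had the same sign as that of the gene's main probe set in 61 of 84 cases. For NDUFS3 both further probe sets had the sign of the first, at 0.34 and 0.30 in coconut oil minus beef tallow and at 0.15 and 0.26 in barrow minus gilt. For ATP5L, subunit g, they gave 0.35 and 0.28 in coconut oil minus beef tallow beside 0.04, and 0.24 and 0.32 in barrow minus gilt beside -0.03.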

How the data were processed

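The authors deposited 1 table of linear probe set signal intensities, with 1 column per pig. The summarisation method and the build are not given in the sources used here. The deposited intensities had a 2% trimmed mean of 500.1 to 500.2 on every array, so they had been scaled to a common level. Signals were turned into log2(signal + 1). After removal of 124 control probe sets, 14399 of 23999 were tested, those with a mean signal at or above the 40th percentile (94.1).

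Gene names came from the platform annotation, which can be old; 10069 probe sets had 1 symbol, 198 had several and 13732 had none. Differences were fitted with limma 3.58.1 in R 4.3.3 as 8 group means (fat by sex, 3 pigs each) on all tested probe sets, two-sided, with Benjamini-Hochberg adjustment over all of them and a threshold of 0.05. The fit was also run on simulated data, as a check that estimated differences were near those put in. The share of differences of each size that would pass is not reported here.

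The members, lists and tests were chosen with earlier results of these data known. Genes were named by rule: those that passed, otherwise the 4 with the smallest p of a comparison, plus 27 key subunits. Of the 27, 17 had a probe set with that gene as its only symbol. The rule gave 31 genes. Any other gene named was chosen after its values were seen. Alternatives were other filters, normalizations, pseudocount, models and pigs left out. The number of arrays limits the precision.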

Additional observations from a re-analysis of the deposited data

Results flagged for a closer look

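In groups of 6 pigs, 1 value stood far from the other 5 (Dixon's test) in 11 of 144 groups of named genes and complex scores. Chance gives about 1 in 20 for independent groups. These groups share pigs and genes, and many genes were named for a small p, so the count cannot show an excess. In olive oil pigs, 6 of the 11 values belonged to pig 12. Its complex I score was -0.69, with the nearest pig at -0.11. Its log2(signal + 1) levels were 11.55 for NDUFA2 (nearest 11.91), 13.25 for COX7A1 (nearest 14.07), 11.49 for ATP5J (nearest 12.33), 12.55 for NDUFB9 (nearest 13.15) and 12.26 for NDUFC1 (nearest 12.99). In beef tallow pigs, pig 21 was low for NDUFB2 at 12.50 (nearest 13.04) and for NDUFA4 at 14.21 (nearest 14.68). Pig 24 was high for NDUFV3 at 8.26 (nearest 7.89). With soybean oil, pig 11 was low for COX7A1 at 11.86 (nearest 13.87). With coconut oil, pig 23 was low for ATP5G2 at 12.28 (nearest 12.69).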

How the results depend on the processing

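The count of respiratory chain genes that passed was 0 under each alternative except 4. It was 1 for barrow minus gilt after quantile normalization (COX7C), 1 for coconut oil minus beef tallow with array weights (ATP5J), and 0 to 1 for barrow minus gilt when each pig was left out in turn (COX7C without pig 10 and without pig 12). Leaving out 1 pig gave medians of -0.06 to 0.09 for soybean oil minus olive oil, -0.13 to -0.02 for soybean oil minus coconut oil, -0.11 to 0.0064 for soybean oil minus beef tallow, -0.22 to -0.02 for olive oil minus coconut oil, -0.17 to 0.02 for olive oil minus beef tallow, -0.02 to 0.08 for coconut oil minus beef tallow and -0.08 to 0.03 for barrow minus gilt. Without pigs 11, 12 and 16 the median for soybean oil minus olive oil was -0.12 and that for olive oil minus beef tallow 0.04. Single genes kept their sign in 2429 of 2536 runs and turned it in 107. Many of these runs could not turn a sign. Leaving out a pig of a fat outside the pair left the difference between the fats unchanged, and so did the additive model. The median for soybean oil minus olive oil, for example, stayed at 0.04 without pig 1, a coconut oil gilt. The genes also included those with the smallest p of each comparison. The share of signs kept is therefore not a measure of stability. The count of all probe sets passing in coconut oil minus beef tallow was 168, 0 with an additive model and 1281 with array weights, and between 0 (without pig 6) and 665 (without pig 12) when 1 pig was left out. For barrow minus gilt the count of all probe sets was 696, 302 with no filter, 1544 with array weights, and 393 to 1064 when 1 pig was left out. The causes were not tested. No paired analysis was possible because the running numbers of the pigs differ between the groups, so no number is shared.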
